A study of Homo sapiens with 6 samples.

Results

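A set of 10 of the 63677 genes in the deposited count table was examined here as the cytoskeleton genes of neurons: MAP2, MAPT, DCX, TUBB3, STMN2, NEFL, NEFM, INA, KIF5A and GAP43. They were taken by symbol, and the set had been proposed because of how MAP2 and KIF5A behaved in these libraries, so the differences of those 2 genes are given as values with no test. The remaining 8 genes came with them by function. TUBB3 had 2 identifiers in the table, of which 1 (ENSG00000198211) was at 0 in every library and the other (ENSG00000258947) was used.

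RNA was sequenced from 2 lines of human embryonic stem cells, Royan H6 (RH6) and Royan H5 (RH5). Naive cells, induced with 2a2iL and then kept in 2iL medium, gave 2 libraries of RH6 at passage 10 and 2 of RH5 at passage 17. Primed cells, kept in medium with bFGF, gave 1 library of RH6 at passage 20 and 1 of RH5 at passage 16. Both states grew on mitotically inactivated mouse embryonic fibroblasts. State and medium cannot be told apart, nor can line and passage among the naive libraries. Passage also differs between the states, at 10 against 20 in RH6 but 17 against 16 in RH5. The state effect in RH6, and its difference from that in RH5, therefore cannot be told apart from passage. No label states that the naive duplicates are separate cultures, so a p-value here speaks for the scatter among the libraries at hand, and that scatter may be technical.

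An axon or dendrite is held open by microtubules, polymers of alpha- and beta-tubulin, and by neurofilaments, the intermediate filaments of neurons. Microtubule-associated proteins such as MAP2 in dendrites, tau in axons and doublecortin in migrating neurons bind along the polymer, stathmins bind free tubulin, and kinesin motors carry cargo along it towards the cell's periphery. Several of these genes serve as markers of neurons.

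The libraries held 13457979 to 14663982 counts. Markers of the labelled cell type were present throughout: the 8 pluripotency markers, POU5F1, SOX2, NANOG, LIN28A, SALL4, TDGF1, L1TD1 and DPPA4, summed to 5835 to 9564 counts per 1000000 (CPM, on totals adjusted by TMM factors) and none was at 0 in any library. The 8 neuron markers summed to 37.5 to 50.3 CPM in naive and 68.6 to 74.7 CPM in primed libraries, and SYT1 alone gave 33.4 to 55.7 CPM of that. MYT1L, a defining factor of neurons, had 0 to 2 counts in each library and SNAP25 had 3 to 14.

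The sequence before the transcript start is shown for MAP2, DCX and INA, which were lower in naive RH6 than in naive RH5, and for GAP43, which was higher there. RefSeq start windows of GRCh38.p14 matched 5 of the 10 genes. Each line gives the 250 bases upstream of a start, 5′ to 3′ on the gene's strand, with every CG dinucleotide in capitals. DCX and MAP2 have 3 listed starts each, of which 1 and 2 are shown.
MAP2 first listed start: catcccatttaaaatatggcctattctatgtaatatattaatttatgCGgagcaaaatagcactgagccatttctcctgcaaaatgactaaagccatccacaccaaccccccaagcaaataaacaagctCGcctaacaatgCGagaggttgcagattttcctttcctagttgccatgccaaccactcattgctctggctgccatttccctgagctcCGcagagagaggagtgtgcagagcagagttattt
MAP2 second listed start: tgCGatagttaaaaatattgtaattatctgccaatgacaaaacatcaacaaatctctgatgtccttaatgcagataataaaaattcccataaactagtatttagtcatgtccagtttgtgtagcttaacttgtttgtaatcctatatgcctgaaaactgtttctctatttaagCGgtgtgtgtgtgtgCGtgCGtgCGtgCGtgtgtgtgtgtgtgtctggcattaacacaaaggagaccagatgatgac
DCX first listed start: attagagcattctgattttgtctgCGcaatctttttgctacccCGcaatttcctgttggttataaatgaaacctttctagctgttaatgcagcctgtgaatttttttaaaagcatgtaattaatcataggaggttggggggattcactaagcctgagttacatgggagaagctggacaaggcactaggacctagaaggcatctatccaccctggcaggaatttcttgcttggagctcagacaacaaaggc
INA: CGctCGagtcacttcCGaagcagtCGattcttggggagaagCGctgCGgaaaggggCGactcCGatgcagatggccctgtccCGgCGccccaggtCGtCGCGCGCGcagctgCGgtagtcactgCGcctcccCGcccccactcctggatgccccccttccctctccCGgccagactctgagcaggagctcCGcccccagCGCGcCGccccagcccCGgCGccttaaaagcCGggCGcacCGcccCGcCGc
GAP43: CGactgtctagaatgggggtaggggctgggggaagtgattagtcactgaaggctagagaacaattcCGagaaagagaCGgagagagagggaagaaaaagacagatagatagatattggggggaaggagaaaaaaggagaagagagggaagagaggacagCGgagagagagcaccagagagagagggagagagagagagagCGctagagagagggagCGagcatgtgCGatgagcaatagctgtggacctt

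The windows lie at chr2:209661246-209661495 and chr2:209579082-209579331 for MAP2 (plus strand), chrX:111412193-111412442 for DCX (minus strand), chr10:103276888-103277137 for INA (plus strand) and chr3:115623260-115623509 for GAP43 (plus strand). They held 4 and 6 CG dinucleotides at MAP2, 2 at DCX, 30 at INA and 7 at GAP43, against a median of 11 over 35116 windows of the same length. As many as the 30 at INA were found in 12.4% of all windows, and as few as the 2 at DCX in 22.9%. The E-box CANNTG, which reads the same on both strands, occurred 0 times at the first MAP2 start, 1 time at the second, 0 times at the first DCX start, 2 times at INA and 1 time at GAP43, and 61.8% of all windows held it. It occurred 2 times at the third MAP2 start and 3 times at the third DCX start, whose sequences are not shown. The letters TTCAGCACC, part of the element bound by the repressor REST, were in none of these 5 windows on either strand and in 0.29% of all windows. The 3 genes with a window that were lower in naive RH6 thus had unlike start sequences. CG dinucleotides numbered 1 to 3 at the 3 DCX starts, 4 to 8 at the 3 MAP2 starts and 30 at INA. STMN2, which was also lower in naive RH6 than in naive RH5 (log2 fold change -4.23 ± 0.31), had no window.

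**Figure D1:**
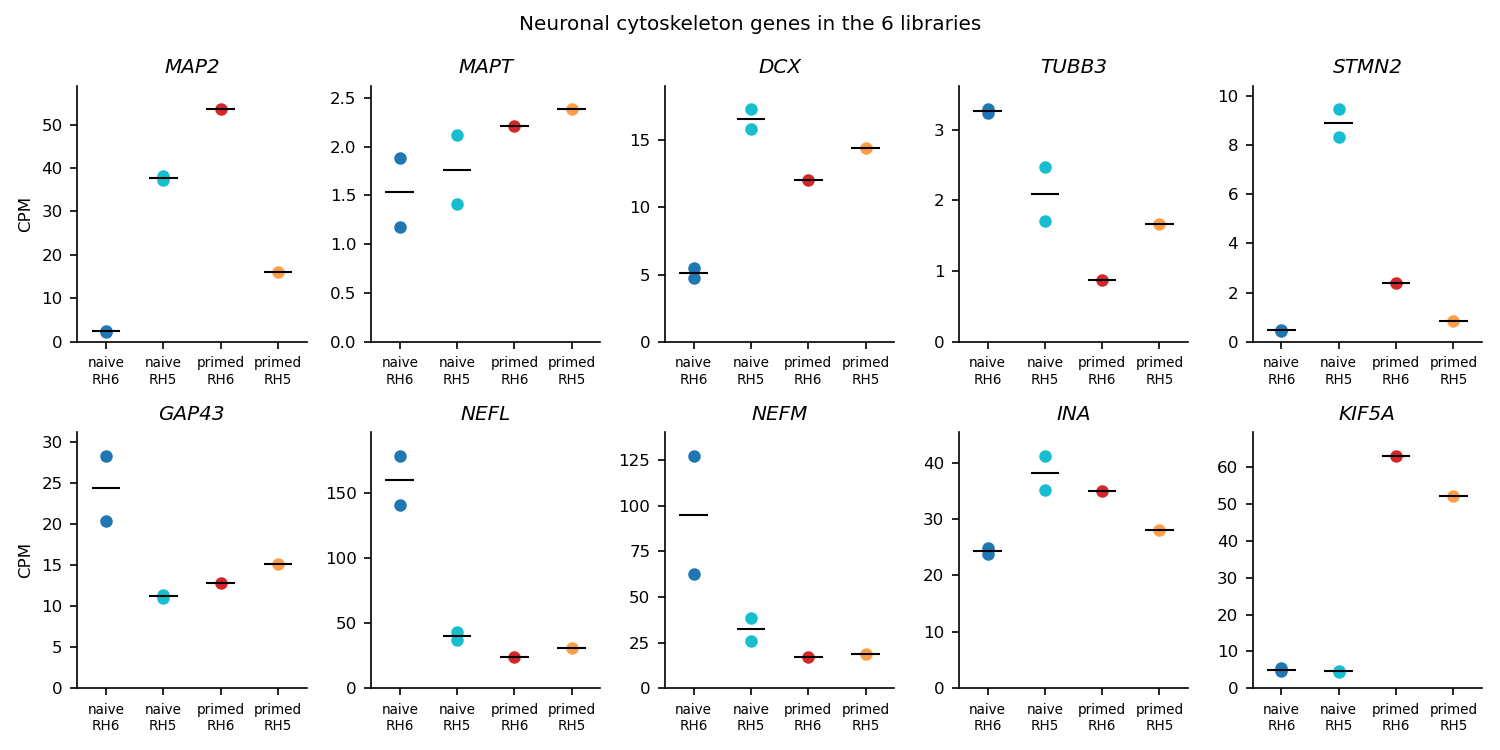
CPM (vertical axes, linear from 0) of each of the 10 genes in the 6 libraries, grouped on the horizontal axes by state and line. Points are libraries and bars are group means. MAP2 and STMN2 are low in naive RH6 and high in naive RH5, NEFL and NEFM are highest in naive RH6, and KIF5A is high in both primed libraries.

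MAP2 (ENSG00000078018), which encodes the main microtubule-associated protein of dendrites, followed the state in opposite directions in the 2 lines. It stood at 2.52 and 2.35 CPM in naive RH6, 38.2 and 37.2 CPM in naive RH5, 53.5 CPM in primed RH6 and 16.04 CPM in primed RH5. The order was therefore primed RH6, naive RH5, primed RH5 and naive RH6, and every step was larger than the gap between duplicates. Primed RH6 held 22.0 times the mean of naive RH6, whereas naive RH5 held 2.35 times the level of primed RH5. As log2 fold changes of naive over primed, with the standard error (SE) of the fit, these were -4.45 ± 0.16 in RH6 and 1.23 ± 0.15 in RH5. Naive RH5 held 15.5 times as much as naive RH6, while primed RH6 held 3.34 times as much as primed RH5. Over both lines the estimate was -2.23 ± 1.26. Removing primed RH6 gave 1.24 and removing primed RH5 gave -4.43, since each removal leaves the effect of a single line. MAP2's next gene, UNC80, a channel subunit, was chosen by position after the values were seen. It fell in both lines, at -2.45 ± 0.42 in RH6 and -1.68 ± 0.40 in RH5 (edgeR adjusted p = 0.0014 and 0.0095). UNC80 was sparse, at 0.72 and 1.12 CPM in naive RH6 and RH5 and 3.95 and 3.61 CPM in primed RH6 and RH5.

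KIF5A (ENSG00000155980), the neuronal member of the conventional kinesin heavy chains, was high in primed cells of both lines. It had 5.52 and 4.62 CPM in naive RH6, 4.80 and 4.47 CPM in naive RH5, 63.2 CPM in primed RH6 and 52.3 CPM in primed RH5. The naive libraries of the 2 lines overlapped, and both primed libraries lay far above them, with a primed mean 11.9 times the naive mean. Its log2 fold change of naive over primed was -3.57 ± 0.13 over both lines, -3.63 ± 0.16 in RH6 and -3.49 ± 0.16 in RH5. The difference between the lines was -0.14 ± 0.24. The genes on either side in RefSeq, DCTN2 and PIP4K2C, were not called in either line, with log2 fold changes of -0.08 to 0.43 (edgeR adjusted p = 0.1474 to 0.8074).

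The other kinesin heavy chains of this family had smaller log2 fold changes between the states. KIF5B, the form made in most tissues, rose by 0.49 ± 0.11 over both lines (edgeR adjusted p = 0.0211), from a primed mean of 464.7 to 651.0 ± 49.9 CPM (SD, n = 4). KIF5C, expressed mainly in neurons, stood at 174.1 ± 8.82 CPM (SD, n = 4) in naive and a mean of 205.9 CPM in primed libraries, a log2 fold change of -0.24 ± 0.10 (edgeR adjusted p = 0.1151). This estimate has the direction of KIF5A, and the naive and primed libraries of KIF5C did not overlap. Per kilobase of exon, KIF5A was at 8.35 to 10.1 CPM in the primed libraries, KIF5C at 22.0 to 22.7 and KIF5B at 77.7 to 80.4. KIF5A was thus the least abundant of the 3 in primed cells as well. The exon lengths are from GENCODE v29, a later annotation than that of the table.

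The 8 genes not chosen for their pattern were tested with edgeR's quasi-likelihood test, with p-values adjusted over all 19434 genes tested. Of these 8, 0 were called at an adjusted p under 0.05 for naive against primed over both lines, where 25.7% of all genes were called. An unadjusted p under 0.05 was found for 3 (TUBB3, NEFL and NEFM). At least 25.7% of all genes pass that threshold, since adjustment only raises p. DESeq2 called 1 of the 8, NEFM, and 5135 of all genes. Without primed RH5, where the RH6 effect alone is left, 7 were called, and without primed RH6 2 were. Within RH6, 4 rose (TUBB3, NEFL, NEFM and GAP43) and 3 fell (DCX, STMN2 and INA), where 33.6% of all genes were called, 16.4% higher and 17.2% lower. Within RH5, 2 rose (STMN2 and INA) and 0 fell, where 33.5% of all genes were called, 16.5% higher and 17% lower. The effects of state in RH6 and RH5 differed in 5 of the 8, with 2 higher and 3 lower in RH6, against 12% of all genes (5.86% higher and 6.16% lower). Naive RH6 against naive RH5 called 3 of the 8 higher (NEFL, NEFM and GAP43) and 3 lower (DCX, STMN2 and INA), where 25.5% of all genes were called, 12% higher and 13.5% lower. Since the set was proposed with these results in view, the counts describe it and are no evidence that it stands apart.

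**Figure D2:**
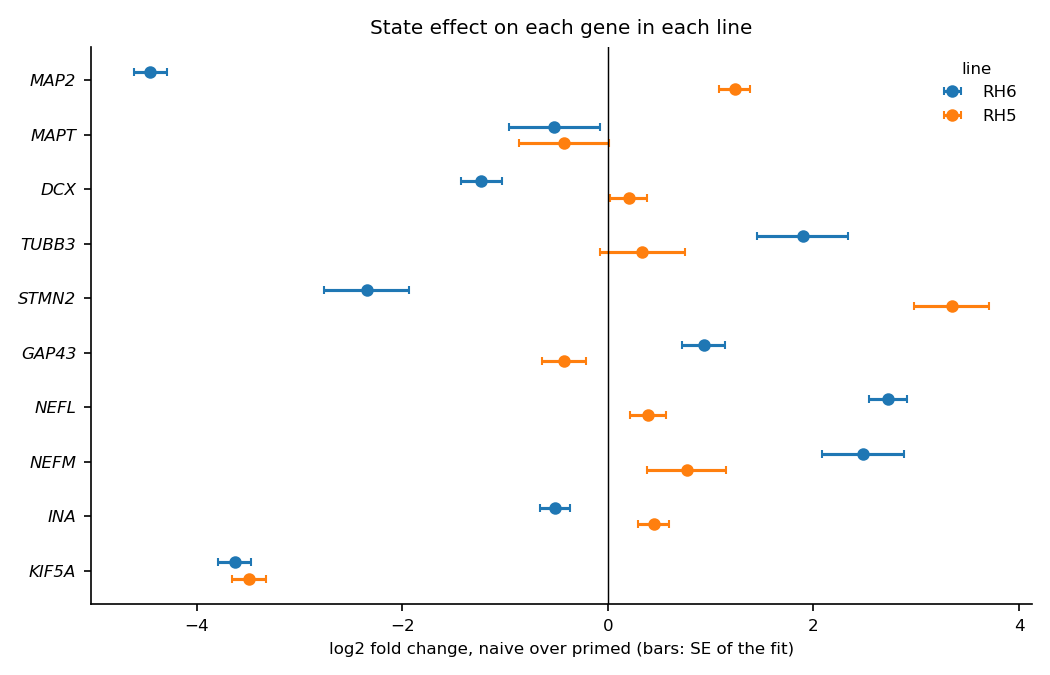
Log2 fold change of naive over primed (horizontal axis) for each gene in RH6 and in RH5, with bars of 1 SE of the fit. The 2 estimates lie on opposite sides of 0 for MAP2, STMN2, DCX, INA and GAP43, and nearly coincide for KIF5A and MAPT.

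Among the other proteins that bind tubulin, STMN2 (ENSG00000104435), a stathmin of growing axons, showed the largest opposite effects. It had 0.489 and 0.440 CPM in naive RH6 (7 and 6 counts), 8.32 and 9.46 CPM in naive RH5, 2.41 CPM in primed RH6 and 0.867 CPM in primed RH5 (12 counts). STMN2 fell in RH6, at -2.35 ± 0.42 (edgeR adjusted p = 0.0017), and rose in RH5 by 3.34 ± 0.37 (adjusted p = 7.95e-05). The effects differed by -5.69 ± 0.56 (edgeR adjusted p = 1.70e-04), and naive RH5 held 19.1 times the level of naive RH6. Over both lines its estimate was 0.32 ± 1.20, and -0.47 with DESeq2. The groups stood in the order of MAP2 except that naive RH5 came before primed RH6. Its neighbour HEY1 rose in both lines, by 1.23 ± 0.30 in RH6 and 1.58 ± 0.34 in RH5 (edgeR adjusted p = 0.0099 and 0.0051). RPL3P9, a pseudogene on the other side, fell in RH6, at -1.94 ± 0.59, and had 0.16 ± 0.68 in RH5 (edgeR adjusted p = 0.0290 and 0.8845). It was near the floor, at 0.46 CPM in naive RH6 and 1.81 CPM in primed RH6.

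DCX (ENSG00000077279), doublecortin, was low in naive RH6 alone. It stood at 4.75 and 5.51 CPM there, 17.3 and 15.8 CPM in naive RH5, 12.0 CPM in primed RH6 and 14.4 CPM in primed RH5. DCX fell in RH6, at -1.23 ± 0.20 (edgeR adjusted p = 9.08e-04), and had 0.20 ± 0.18 in RH5 (adjusted p = 0.4298). The difference between the lines was -1.43 ± 0.27 (edgeR adjusted p = 0.0074), and naive RH6 was below naive RH5 by a log2 fold change of -1.69 ± 0.17 (adjusted p = 6.42e-05). The neighbouring gene CAPN6, a calpain-like protein that binds microtubules, also fell in RH6, at -2.87 ± 0.18 (edgeR adjusted p = 1.30e-06), and had -0.07 ± 0.18 in RH5 (adjusted p = 0.8063).

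MAPT (ENSG00000186868), which encodes the axonal protein tau, was near the lower limit of what these libraries resolve. It had 16 to 33 counts per library, 1.89 and 1.17 CPM in naive RH6, 2.12 and 1.42 CPM in naive RH5, 2.21 CPM in primed RH6 and 2.38 CPM in primed RH5. Its log2 fold change was -0.48 ± 0.33 over both lines (edgeR adjusted p = 0.3357), -0.52 ± 0.44 in RH6 and -0.43 ± 0.43 in RH5. No difference was detectable at this depth. Of the genes at this locus, MAPT-AS1 had 1 count over all libraries and STH had 0.

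TUBB3 (ENSG00000258947), the beta-tubulin used as a marker of neurons, was also sparse, with 13 to 47 counts per library. It had 3.29 and 3.23 CPM in naive RH6, 2.47 and 1.71 CPM in naive RH5, 0.870 CPM in primed RH6 and 1.66 CPM in primed RH5. TUBB3 rose in RH6 by 1.89 ± 0.44 (edgeR adjusted p = 0.0079), a call that DESeq2 did not make (adjusted p = 0.0634). In RH5 it had 0.33 ± 0.41 (edgeR adjusted p = 0.5735), and the difference between the lines, 1.56 ± 0.61, was not called (adjusted p = 0.1353). Beta-tubulin genes have nearly identical coding sequences, so reads may have been split or dropped among them. The identifier at 0, ENSG00000198211, is in GENCODE v29 a separate gene, AC092143.1, which overlaps TUBB3 on the same strand. Whether reads shared by both were dropped, which would lower the TUBB3 counts, was not tested. The next gene before TUBB3, MC1R, lies at the same locus and had log2 fold changes of 1.38 ± 0.53 in RH6 and 1.00 ± 0.60 in RH5, neither called (edgeR adjusted p = 0.0717 and 0.2365).

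GAP43 (ENSG00000172020), a membrane protein of growth cones, was highest in naive RH6. It stood at 20.4 and 28.3 CPM there, 11.4 and 10.95 CPM in naive RH5, 12.8 CPM in primed RH6 and 15.1 CPM in primed RH5. GAP43 rose in RH6 by 0.93 ± 0.21 (edgeR adjusted p = 0.0074) and had -0.43 ± 0.22 in RH5 (adjusted p = 0.1529). The difference between the lines was 1.36 ± 0.30 (edgeR adjusted p = 0.0164), and naive RH6 exceeded naive RH5 by 1.12 ± 0.17 (adjusted p = 0.0011).

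The neurofilament subunits NEFL and NEFM were the genes of the set that rose most in RH6. NEFL (ENSG00000104725), the light subunit, had 141.2 and 178.9 CPM in naive RH6, 37.3 and 43.7 CPM in naive RH5, 24.2 CPM in primed RH6 and 30.9 CPM in primed RH5. It rose in RH6 by 2.73 ± 0.19 (edgeR adjusted p = 2.80e-06), or 6.62 times the primed level, and had 0.39 ± 0.17 in RH5 (adjusted p = 0.1130). The RH5 effect was called with no low-count filter (edgeR adjusted p = 0.0456), at nearly the same estimate, 0.40. It stayed at 0.39 without naive RH6 replicate 1 or 2. It was 0.50 without naive RH5 replicate 1 and 0.29 without naive RH5 replicate 2. Each of these fits has 1 duplicate pair left to measure the spread, so their calls are not given. The difference between the lines was 2.34 ± 0.24 (edgeR adjusted p = 2.60e-04).

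NEFM (ENSG00000104722), the medium subunit, had 62.4 and 127.3 CPM in naive RH6, 25.8 and 38.7 CPM in naive RH5, 16.9 CPM in primed RH6 and 18.9 CPM in primed RH5. The duplicates of naive RH6 differed widely, yet both lay above every other library. NEFM rose in RH6 by 2.48 ± 0.40 (edgeR adjusted p = 9.26e-04), or by 1.88 without naive RH6 replicate 2, and had 0.76 ± 0.39 in RH5 (adjusted p = 0.1585). Naive RH6 exceeded naive RH5 by 1.56 ± 0.29 (edgeR adjusted p = 0.0032), and by 0.96 without naive RH6 replicate 2. The difference between the lines, 1.72 ± 0.54, was not called (edgeR adjusted p = 0.0674). It was called with no low-count filter (edgeR adjusted p = 6.40e-12), though the estimate was nearly the same, at 1.73. That lower p may therefore follow from the estimate of spread. The difference was 1.12 without naive RH6 replicate 2 and 2.15 without naive RH6 replicate 1. Leaving out a naive library leaves 1 duplicate pair to measure the spread, so calls from those fits are not given here. In RH5 NEFM was called with no low-count filter (edgeR adjusted p = 3.69e-05), at nearly the same estimate, 0.77. The RH5 effect of NEFM stayed at 0.76 without naive RH6 replicate 1 or 2. It was 1.03 without naive RH5 replicate 1 and 0.46 without naive RH5 replicate 2.

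Over both lines NEFL had 1.43 ± 0.51 (edgeR adjusted p = 0.0805) and NEFM 1.56 ± 0.48 (adjusted p = 0.0522). For NEFM, DESeq2 reached 0.0469, edgeR with RLE factors 0.0495 and edgeR without the low-count filter 2.31e-04. NEFL passed without the low-count filter (9.25e-04). Without that filter the estimates hardly moved, at 1.58 for NEFM and 1.44 for NEFL, so these lower p-values may follow from the estimate of spread. NEFL and NEFM are next to each other on their chromosome in RefSeq, and neither outer neighbour rose. ADAM28 fell in both lines, at -3.03 ± 0.46 in RH6 and -3.56 ± 0.59 in RH5 (edgeR adjusted p = 6.12e-04 and 0.0011). It was sparse, at 0.47 and 0.18 CPM in naive RH6 and RH5 and 3.88 and 2.24 CPM in primed RH6 and RH5. DOCK5 had -0.06 ± 0.14 in RH6 (edgeR adjusted p = 0.78) and fell in RH5, at -1.64 ± 0.14 (adjusted p = 1.34e-05). AF106564.1, an antisense gene over NEFM in GENCODE v29, had 116 and 128 counts in naive RH6, 77 and 71 in naive RH5, 115 in primed RH6 and 95 in primed RH5, so it did not share the order of NEFM.

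INA (ENSG00000148798), internexin alpha, a filament protein that coassembles with the neurofilaments, varied least of the 3 filament genes. It stood at 24.9 and 23.9 CPM in naive RH6, 35.2 and 41.2 CPM in naive RH5, 34.9 CPM in primed RH6 and 28.0 CPM in primed RH5. INA fell in RH6, at -0.52 ± 0.15 (edgeR adjusted p = 0.0201), and rose in RH5 by 0.45 ± 0.15 (adjusted p = 0.0426). DESeq2 made neither call (adjusted p = 0.116 and 0.1808). The RH5 effect was 0.34 without naive RH5 replicate 2 and 0.56 without naive RH5 replicate 1. The difference between the lines was -0.96 ± 0.21 (edgeR adjusted p = 0.0148), and it was not called with DESeq2 (0.0515). NEFH, the heavy neurofilament subunit, stood at 5.31 to 9.61 CPM in naive and 11.4 and 11.5 CPM in primed libraries, with a log2 fold change of -0.65 ± 0.27 that was not called (edgeR adjusted p = 0.1287). The filament genes therefore did not move as a set.

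Levels can be compared between genes only per length. Per kilobase of exon, NEFL led in naive RH6 at 37.0 CPM, followed by NEFM at 21.6, GAP43 at 11.7 and INA at 7.54, and the other 6 genes stood at 0.10 to 0.81. The length used for NEFL is that of a later identifier of the gene. INA led in naive RH5 at 11.8 CPM per kilobase, in primed RH6 at 10.8 and in primed RH5 at 8.68, with KIF5A next in both primed libraries. MAPT was the lowest of the 10 in every group, at 0.10 to 0.16 CPM per kilobase.

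**Figure D3:**
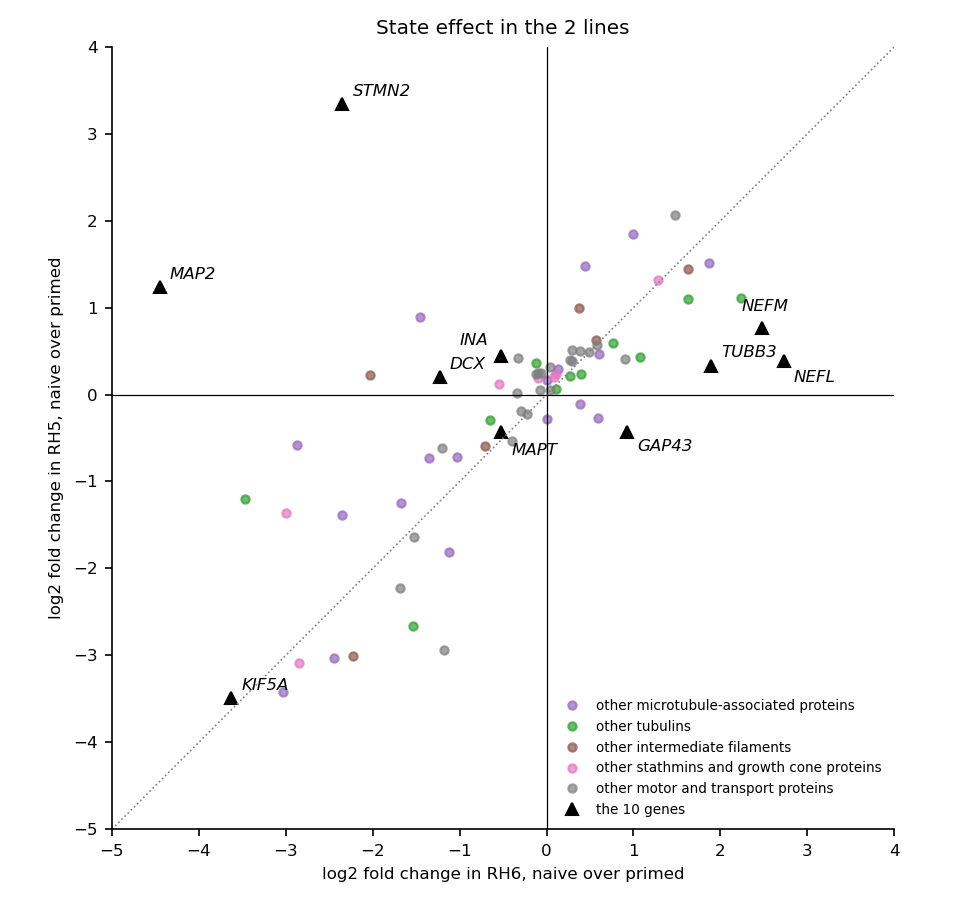
Log2 fold change of naive over primed in RH6 (horizontal axis) and in RH5 (vertical axis) for the 10 genes (triangles) and for other cytoskeleton genes by list (circles). The dotted line marks equal effects. MAP2 and STMN2 lie in the upper left, KIF5A close to the dotted line at the lower left, and NEFL and NEFM near the horizontal axis at the right.

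Other genes of the cytoskeleton were taken from lists by function. The counts for these lists over both lines stand against 12.1% of all genes called higher and 13.6% called lower. Of 18 tested microtubule-associated proteins other than the 10 genes, 4 rose and 8 fell in naive cells, with a median log2 fold change of -0.26 against -0.01 over all genes. MAP6, which stabilises microtubules against cold, had -3.18 ± 0.42 (edgeR adjusted p = 0.0025), MAP7 -2.75 ± 0.15 and CAMSAP3, which binds the minus end, -1.88 ± 0.23. All 3 were also called in each line. In 7 of the 18 the effects in RH6 and RH5 differed, where 12% of all genes did, CAMSAP3 among them with -2.36 ± 0.18 and -1.38 ± 0.18.

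Of 11 other tubulins tested, 4 rose and 3 fell, with a median of 0.25, where 12.1% of all genes rose and 13.6% fell. TUBB2A, a beta-tubulin of brain with a near-identical neighbour in TUBB2B, rose by 1.63 ± 0.25 (edgeR adjusted p = 0.0045). TUBB4A, another brain beta-tubulin, had -2.33 ± 0.46 (edgeR adjusted p = 0.0114) and TUBA4A -2.12 ± 0.29 (adjusted p = 0.0029). The intermediate filament gene VIM rose by 1.53 ± 0.11 and GFAP, the filament of astrocytes, had -2.58 ± 0.60 (edgeR adjusted p = 2.19e-04 and 0.0203), and the other 4 filament genes tested were not called. Brain tubulins thus changed in both directions with the state.

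Of 7 other stathmins and growth cone proteins tested, 2 were called, both lower, a share close to the 25.7% of all genes called. STMN3, another neuronal stathmin, had -2.97 ± 0.27 (edgeR adjusted p = 5.87e-04), from -2.85 ± 0.30 in RH6 and -3.09 ± 0.30 in RH5, and PALM had -2.20 ± 0.39 (adjusted p = 0.0075). STMN3 fell in both lines, while STMN2 went in opposite directions. Of 23 motor and transport proteins, 6 rose and 5 fell, with a median of 0.05, where 25.7% of all genes were called. The axonal kinesin gene KIF1A had -2.14 ± 0.34 (edgeR adjusted p = 0.0051), the kinesin adaptor gene MAPK8IP1 -1.96 ± 0.19 (adjusted p = 7.16e-04), and the dynein intermediate chain gene DYNC1I1 rose by 1.78 ± 0.23 (adjusted p = 0.0022). In 2 of the 23, RH6 and RH5 differed in the effect of state, against 12% of all genes.

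Of 13 kinases and severing enzymes of microtubules, 1 was called over both lines, where 25.7% of all genes were. CDK5R1, the neuronal activator of the kinase CDK5, fell, at -0.99 ± 0.21 (edgeR adjusted p = 0.0150). REST, a repressor of neuronal genes in other cells, stood at 1069 ± 163 CPM (SD, n = 4) in naive and a mean of 665.1 CPM in primed libraries and rose by 0.67 ± 0.16 (edgeR adjusted p = 0.0227). Its effect was 0.39 ± 0.13 in RH6 and 0.97 ± 0.13 in RH5, and the difference between the lines was not called (edgeR adjusted p = 0.0605). Of the 12 genes of REST and its corepressors, 1 rose and 3 fell, where 12.1% of all genes rose and 13.6% fell, among them RCOR2 at -0.74 ± 0.11 and EHMT2 at -0.61 ± 0.09.

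**Figure D4:**
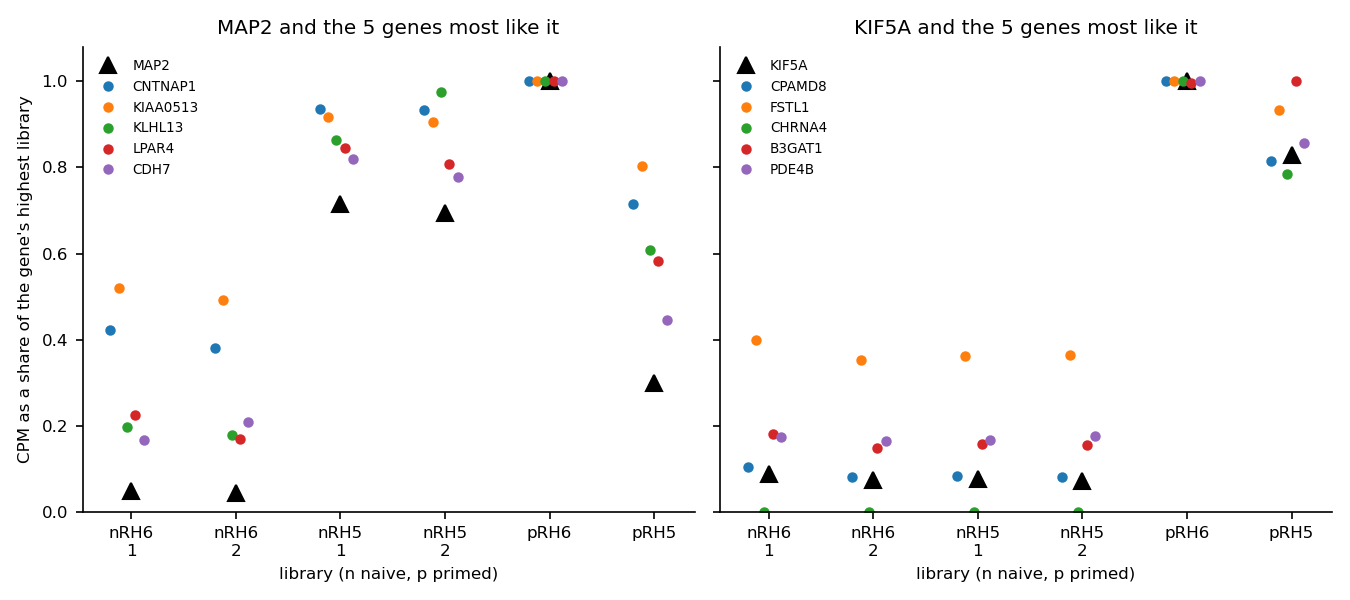
Level of MAP2 (left) and KIF5A (right) and of the 5 genes whose log2 CPM correlated best with each over the 6 libraries, as CPM divided by the gene's highest library (vertical axis). The genes beside MAP2 are lowest in naive RH6 and highest in primed RH6, and those beside KIF5A are low in all 4 naive libraries.

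The genes whose pattern was most like that of MAP2 were found by Pearson correlation of log2 CPM over the 6 libraries, among 9625 genes with a range of at least 1 on that scale. The 5 highest were CNTNAP1 (r = 0.998), KIAA0513 (0.996), KLHL13 (0.995), LPAR4 (0.993) and CDH7 (0.991). LPAR4, a receptor for lysophosphatidic acid, had 7.41 and 5.58 CPM in naive RH6, 27.8 and 26.6 CPM in naive RH5, 32.9 CPM in primed RH6 and 19.1 CPM in primed RH5. The 5 most like KIF5A were CPAMD8 (r = 1.000), FSTL1 (0.999), CHRNA4 (0.998), B3GAT1 (0.998) and PDE4B (0.998). CHRNA4, a nicotinic receptor subunit, was at 0 in all 4 naive libraries and at 2.21 and 1.73 CPM in the primed ones. These correlations were picked as the highest among 9625 and describe likeness only.

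Markers of other cell types moved with some of the 10 genes. The 7 neural progenitor markers summed, PAX6, SOX1, FABP7, HES5, SIX3, RAX and LHX2, came to 109.3 CPM in primed RH6, 30.1 CPM in primed RH5, 16.8 and 22.2 CPM in naive RH6 and 12.0 and 11.1 CPM in naive RH5. Primed RH6 led in this sum as in MAP2, but the other groups stood in another order, with the sum lowest and MAP2 high in naive RH5. FABP7 alone gave 14.1 and 19.2 CPM of the sum in naive RH6 and 9.45 and 8.34 CPM in naive RH5. The order of the naive groups thus rests largely on that gene, which had 4.95 CPM in primed RH6 and 2.31 CPM in primed RH5. Of 6 progenitor markers tested over both lines, 1 rose and 4 fell, RAX, SIX3 and PAX6 among them, where 12.1% of all genes rose. Of the neuron markers, 4 of 6 tested fell in naive cells over both lines, where 13.6% of all genes fell, with ELAVL4 at -4.67 ± 0.55, RBFOX3 at -3.73 ± 0.40 and ELAVL3 at -2.60 ± 0.52 (edgeR adjusted p = 0.0016, 0.0011 and 0.0124). These RNA-binding proteins of neurons were lower in naive cells of both lines, as KIF5A was. Between naive RH6 and naive RH5, all 6 neuron markers tested had estimates below 0, with a median of -0.61 against -0.002 over all genes. Of these, ELAVL3, ELAVL4, RBFOX3 and SYP were near the floor, with 0 to 14 counts in each naive library. An unadjusted p under 0.05 was found for 2 of the 6 (edgeR). No adjusted p passed, where 25.5% of all genes were called.

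The 9 fibroblast markers summed to 816.5 and 636.1 CPM in naive RH6, 351.5 and 408.9 CPM in naive RH5, 264.6 CPM in primed RH6 and 259.3 CPM in primed RH5, so that naive RH6 led and naive RH5 followed, as for NEFL and NEFM. Not every marker shared this order. THY1 stood at 16.01 to 38.1 CPM in naive and 51.9 and 80.5 CPM in primed libraries, and COL1A1 at 80.3 and 92.8 CPM in naive RH5 but 104.1 and 111.0 CPM in primed cells. Within naive RH6 the order was the opposite, with more NEFL and NEFM in replicate 2 and a higher fibroblast sum in replicate 1. COL1A1 alone gave 365.8 and 275.2 CPM of that in naive RH6, DCN was at 0 in naive RH6 replicate 2, and FAP in naive RH5 replicate 1 and primed RH6. The 7 glial markers summed came to 7.41 to 10.5 CPM in naive and 18.8 to 21.8 CPM in primed libraries, and OLIG1 was at 0 in every library. The part of these cell types in the differences above was not tested. In bulk RNA, fewer cells of a type and less RNA per cell cannot be told apart. Whether reads from the mouse embryonic fibroblasts under the cells were counted on these human genes was not tested.

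**Figure D5:**
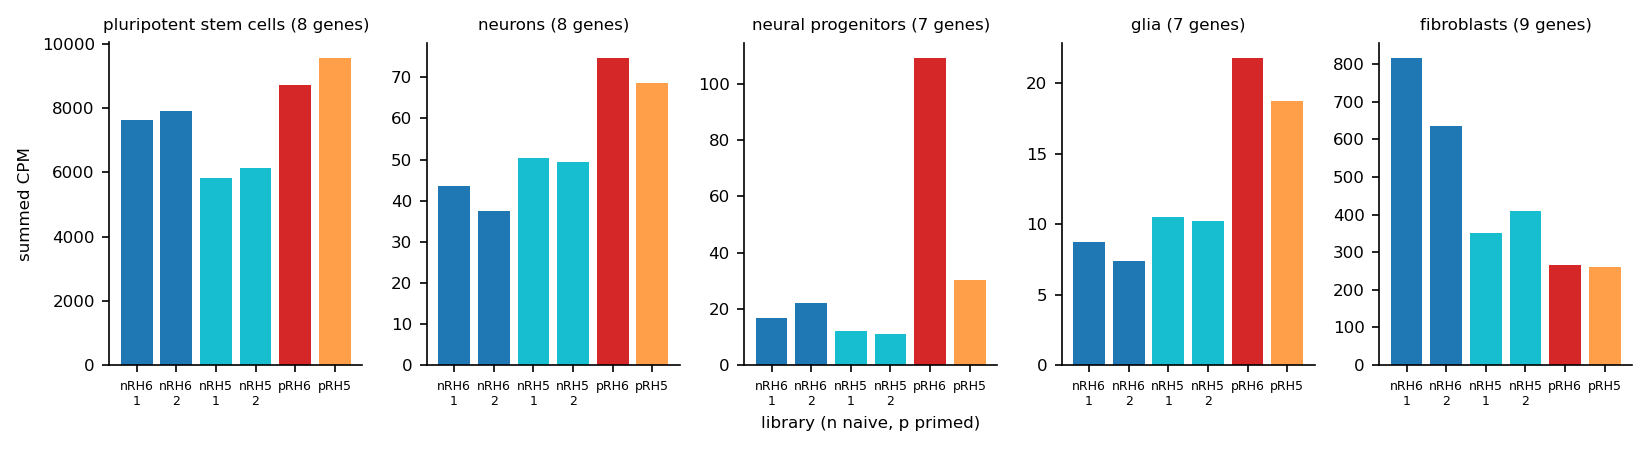
Summed CPM (vertical axes, from 0) of marker lists for 5 cell types in the 6 libraries (horizontal axes, n for naive and p for primed). The fibroblast sum is highest in naive RH6, at 636.1 and 816.5 CPM, and the neural progenitor sum is highest in primed RH6, at 109.3 CPM.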

How the data were processed

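The deposited table holds raw counts, whole numbers for 63677 genes. Tools named in the submitters' processing notes, without roles, are STAR 2.4.0a, featureCounts 1.4.5-p1 (Subread), FastQC and DESeq2, with genome builds GRCh37.p5 and hg19. How strand and multiply mapped reads were handled is not given in the sources used here, so overlapping, antisense and paralogous genes (the tubulins) are uncertain.

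Counts were tested with edgeR 4.0.16 (R 4.3.3), TMM factors and quasi-likelihood F-tests, two-sided, with Benjamini-Hochberg adjustment over 19434 genes kept by filterByExpr (minimum count 10, minimum total 15, state as group), and all 10 genes of the set passed. Naive against primed over both lines had the line as covariate (3 residual degrees of freedom). Every other comparison came from a model with a mean for each group (2 residual degrees of freedom), where each lone primed library is assumed to vary like the naive duplicates. The SE is the log2 fold change over the root of F. CPM used TMM-scaled totals, and log2 CPM a prior count of 2. The fitting of naive against primed was also run on simulated counts with equal spread for every gene and no effect of line. That simulation did not cover the difference between the lines or the naive lines against each other. DESeq2 1.42.0 and other settings were alternatives.

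The 10 genes, the 13 other lists (136 of 137 genes found) and the naming rule (from each list the 3 largest changes called over both lines) were chosen with earlier results of these data known. From the neural progenitor and glial markers, 1 gene each is not reported here and was left out of the sums. The neighbouring genes and the antisense gene of NEFM were added after the members' values were seen. Promoter windows and neighbours come from RefSeq (GRCh38.p14) and were not placed on the authors' build.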

Additional observations from a re-analysis of the deposited data

Results flagged for a closer look

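The effect of the state differed between the lines in 5 of the 8 tested genes, by the test of the difference itself, and in 12% of all genes. The set was proposed with these results in view, so the count describes it only. On the log2 scale, RH6 minus RH5, the difference was -1.43 for DCX, -5.69 for STMN2, 2.34 for NEFL, -0.96 for INA and 1.36 for GAP43. MAP2 had a difference of -5.69, with both naive libraries below the primed library in RH6 and both above it in RH5, and this was not tested because MAP2 was chosen for it. Each line has 1 primed library, so each difference rests on 2 single libraries. The states also differ in passage, mainly in RH6, and this cannot be told apart from the differences.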

How the results depend on the processing

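Of 440 recomputed effects of the 10 genes, 390 kept their direction and their side of the threshold. For the untested MAP2 and KIF5A, a move smaller than the spread between duplicates counted as kept. Of the rest, 24 gained a call, 5 lost one, 13 turned sign and 8 moved by more than that spread. Those 8 were all MAP2 over both lines, among them -0.79 with no line term and -1.53 with the naive duplicates summed. Over both lines, leaving out 1 library at a time gave log2 fold changes of -4.43 to 1.24 for MAP2, -1.20 to 0.21 for DCX, -2.32 to 3.35 for STMN2, -0.49 to 0.45 for INA and -0.42 to 0.96 for GAP43. Leaving out a primed library leaves only the other line's effect. Leaving out a naive library leaves 1 duplicate pair to measure the spread in the model of group means. Calls that change there, or with no low-count filter, may follow from the estimate of spread. STMN2 had -0.47 with DESeq2. Leaving out 1 library also turned the sign of uncalled or untested small values: MAPT had -0.48 to 0.21 for the difference between the lines and -0.59 to 0.10 between the naive lines, and KIF5A -0.0016 to 0.25 between the naive lines.

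Of the 8 tested genes, naive against primed over both lines called 1 with DESeq2, 1 with RLE factors, 2 with no low-count filter and 0 to 7 without 1 library. Within RH5 it called 1 with DESeq2, 4 with no low-count filter and 1 to 4 without 1 library. Of all genes, the 4996 called over both lines became 1092 with the naive duplicates summed and 2961 to 6704 without 1 library. DESeq2 called 4036 in RH6 (6528 with edgeR), 3936 in RH5 (6506), 1305 for the difference between the lines (2337) and 2856 between the naive lines (4952). The cause was not tested. With the replicate number as a block, 7404 genes were called between the naive lines. The duplicates share only a number, with a correlation of 0.14 between the deviations of same-numbered libraries, and the block changed no call of the tested genes. Genes with few counts, MAPT and TUBB3 above all, are limited by those counts. For TUBB3, reads shared with an overlapping gene may also have been dropped, which was not tested.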
